A study of Homo sapiens with 12 samples.

Results

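ETV1, ERG, ETV4, ETV5, SPDEF, ELF3, FOXA1, HOXB13, GATA2 and KLF5 are transcription factors tied to the identity of prostate epithelium and to prostate cancer. They were followed on every probe set that the array annotation assigns to them. The rule names the genes and uses no threshold on their values, but they were picked with earlier results of these data known. These 10 genes are covered by 26 of the 22277 probe sets on the array, out of 11963 annotated genes. The arrays measured mRNA in LnCaP and 22RV1, both established human prostate cancer cell lines. In each line, 3 arrays came from cells given 100 µM nicotine tartrate for 24 h, and 3 came from untreated cells, for which no vehicle is named. The labels do not say whether replicates were separate cultures, so the p-values describe only how far these arrays scatter, which could be technical scatter.

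ETS factors share a DNA-binding domain that recognises a GGAA core. ETV1, ETV4 and ETV5 form the PEA3 subgroup, whose activity is raised by ERK signalling, and in prostate cancer ETV1 and ERG are often joined to the 5′ ends of androgen-driven genes. FOXA1, a pioneer factor that opens chromatin, and the factors HOXB13 and GATA2 cooperate with the androgen receptor at prostate enhancers, while KLF5, a zinc-finger factor, is known from basal and luminal progenitor cells of the epithelium. LnCaP is known to carry a rearrangement that places ETV1 on chromosome 14 near FOXA1. Its part in the values below was not tested.

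The genes with the widest differences between the lines were ETV1 and KLF5, and their upstream sequences are shown for that reason. The 250 bases before a transcript start come from RefSeq on GRCh38.p14, where 7 of the 10 genes matched and gave 17 windows. ETV4, ETV5 and HOXB13 did not match. Capitals mark CCGGAA, an ETS core with its preferred flank, searched on both strands; 14.5% of 35116 such windows in the genome hold it.
ETV1, chr7:13991426-13991675, minus strand: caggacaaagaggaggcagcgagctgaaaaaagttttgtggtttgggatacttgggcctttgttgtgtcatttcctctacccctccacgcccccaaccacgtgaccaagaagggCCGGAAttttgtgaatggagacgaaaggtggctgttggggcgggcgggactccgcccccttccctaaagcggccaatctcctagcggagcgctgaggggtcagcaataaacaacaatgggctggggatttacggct
KLF5, chr13:73054726-73054975, plus strand: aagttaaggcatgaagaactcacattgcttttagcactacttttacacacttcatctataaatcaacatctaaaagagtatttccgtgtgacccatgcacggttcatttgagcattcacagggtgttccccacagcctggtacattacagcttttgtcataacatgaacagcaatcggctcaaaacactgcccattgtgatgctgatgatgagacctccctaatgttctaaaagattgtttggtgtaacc
KLF5, chr13:73058755-73059004, plus strand: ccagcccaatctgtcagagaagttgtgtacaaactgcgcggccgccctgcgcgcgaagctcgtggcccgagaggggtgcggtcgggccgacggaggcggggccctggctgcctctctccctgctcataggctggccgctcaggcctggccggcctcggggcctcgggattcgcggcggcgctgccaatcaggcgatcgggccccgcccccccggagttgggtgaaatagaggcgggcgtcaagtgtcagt
The ETV1 window holds 1 ETS match and 2 matches to CCCGCCC, a KLF/SP motif that 31.5% of all windows hold, and none of the ETS matches overlaps another searched motif. The first KLF5 window holds none of the searched motifs and has a GC content of 40.8%, against a median of 58.0% over all windows. The second KLF5 window holds 1 CCCGCCC match and has a GC content of 70.8%. ETV1 has 6 windows in all, of which 3 hold an ETS match, but 2 of these overlap in all but 4 bases and share the same match. The other motifs searched were TGTTTAC for FOX factors, AGATAA for GATA factors and CCAATAAA for HOXB13, held by 2.98%, 9.17% and 0.863% of all windows. A match is a string of letters, not a measured binding site.

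All values are the deposited log2 intensities, in which a difference of 1 is a doubling. The array medians lay between 6.61 and 6.71, the lowest correlation between arrays of 1 group was 0.992, and the highest between arrays of different lines was 0.933. The labelled cell type was checked on marker genes. Of 8 luminal genes 6 were measured, and their mean per array was 10.99 to 11.35 in LnCaP with nicotine and 11.16 to 11.26 in untreated LnCaP, against 9.11 to 9.72 in 22RV1 with nicotine and 9.18 to 9.82 in untreated 22RV1. KLK3, KLK2, TMPRSS2, KRT8 and KRT18 were above the array median in all 4 groups, and ACP3 was above it in LnCaP. In 22RV1, ACP3 was below the array median on all untreated arrays and not above it on every nicotine-treated array. The basal keratins KRT5, KRT14 and KRT15 and the endothelial genes PECAM1, CDH5, TEK and KDR were below the array median in all 4 groups, but the basal gene DST was above it in 22RV1 and the endothelial gene VWF in LnCaP. All 4 measured leukocyte genes were below it, and of 7 stromal genes COL1A1 and ACTA2 were above it in all 4 groups. Of 4 neuroendocrine genes, CHGB, SYP and ENO2 were above it in 22RV1 and ENO2 alone in LnCaP, while CHGA was below it in all groups. The part of these differences in the results below was not tested.

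The lines were compared within nicotine-treated and, separately, within untreated cells, and these comparisons share no arrays. A probe set was called at a Benjamini-Hochberg adjusted limma p below 0.05, adjusted over all 22277. With nicotine, 18 of the 26 probe sets were called between LnCaP and 22RV1, 9 higher and 9 lower in LnCaP. This is 69.2%, against 46.2% of all probe sets, of which 23.8% were higher and 22.4% lower. Without treatment, 16 of 26 were called, 9 higher and 7 lower, which is 61.5%, against 43.7% of all probe sets, 22.8% higher and 20.9% lower. The median absolute difference over the 26 was 0.68 with nicotine and 0.54 untreated, against 0.26 and 0.24 over all probe sets. By gene, ETV1 and GATA2 had a probe set called higher in LnCaP under both treatments, HOXB13 with nicotine only and ERG untreated only. ETV4, ETV5, SPDEF and KLF5 had a probe set called lower under both, and ELF3 with nicotine only. FOXA1 was called in neither, and for HOXB13, ERG and ELF3 no change of the line difference with treatment was called.

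**Figure D1:**
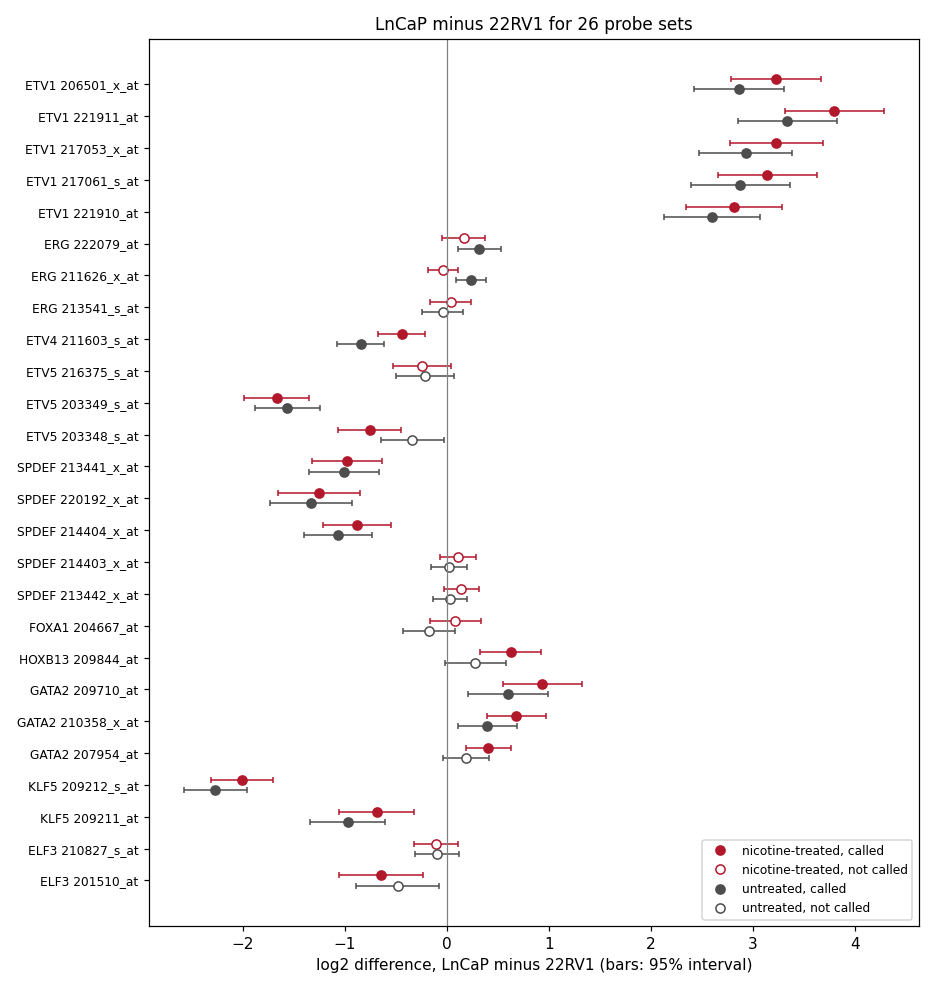
LnCaP minus 22RV1 on the log2 scale for each of the 26 probe sets, in nicotine-treated and untreated cells, with 95% confidence intervals; filled points passed the limma threshold. The 5 ETV1 probe sets lie far to the right, between 2.59 and 3.79, and KLF5 and ETV5 probe sets lie farthest to the left.

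ETV1 was the member that separated the lines most. On its probe set 221911_at it had 10.29, 10.04 and 9.99 in LnCaP with nicotine and 9.65, 9.85 and 9.54 in untreated LnCaP, against 6.14, 5.98 and 6.83 in 22RV1 with nicotine and 6.20, 6.03 and 6.79 in untreated 22RV1. Every LnCaP array lay above every 22RV1 array, and the third 22RV1 array of each treatment was the highest of its group. ETV1 was 3.79 higher in LnCaP than in 22RV1 with nicotine (13.9-fold, limma adjusted p = 4.65e-08) and 3.33 higher untreated (10.1-fold, adjusted p = 1.60e-07). The probe set 206501_x_at, the brightest of the gene, had 9.97, 10.08 and 9.76 in LnCaP with nicotine, against 6.61, 6.37 and 7.15 in 22RV1 with nicotine, and 9.48, 9.22 and 9.74 in untreated LnCaP, against 6.73, 6.31 and 6.82 in untreated 22RV1. It averaged 9.93 ± 0.16 in LnCaP with nicotine and 9.48 ± 0.26 in untreated LnCaP, against 6.71 ± 0.40 in 22RV1 with nicotine and 6.62 ± 0.27 in untreated 22RV1 (SD, n = 3 each). Over the 5 probe sets, the difference was 2.81 to 3.79 with nicotine and 2.59 to 3.33 untreated, all called. Of the 26 probe sets, 9 carry the suffix _x_at, which marks probes that may also bind other transcripts, but the ETV1 probe sets 221911_at, 221910_at and 217061_s_at do not.

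The other PEA3 members ran the opposite way. ETV4 had 6.31, 6.53 and 6.41 in LnCaP with nicotine, against 6.86, 6.81 and 6.91 in 22RV1 with nicotine, a difference of -0.44 ± 0.11 (SE; limma adjusted p = 0.00389). In untreated cells it had 6.21, 6.06 and 6.39 in LnCaP, against 6.93, 7.03 and 7.24 in 22RV1, which was -0.85 (1.80-fold lower, adjusted p = 3.25e-05). The lines did not overlap under either treatment.
ETV5 depended on the probe set. On 203349_s_at it had 4.64, 5.05 and 4.92 in LnCaP with nicotine, against 6.65, 6.28 and 6.7 in 22RV1 with nicotine, and in untreated cells 5.0, 4.65 and 4.68 in LnCaP, against 6.19, 6.50 and 6.34 in 22RV1. The differences were -1.67 (3.18-fold lower, limma adjusted p = 1.51e-06) with nicotine and -1.57 (2.96-fold lower, adjusted p = 3.05e-06) untreated. The highest LnCaP value sat more than 1 unit below the lowest 22RV1 value under each treatment. The probe set 203348_s_at was lower in LnCaP with nicotine, at -0.76 (adjusted p = 0.000788), while untreated it was -0.34 (adjusted p = 0.0755). The brightest ETV5 probe set, 216375_s_at, had 5.62, 5.32 and 5.73 in LnCaP with nicotine, against 5.72, 5.60 and 6.08 in 22RV1 with nicotine, and 5.67, 5.67 and 5.53 in untreated LnCaP, against 5.77, 5.90 and 5.84 in untreated 22RV1. It averaged 5.56 ± 0.21 in LnCaP with nicotine, against 5.80 ± 0.25 in 22RV1 with nicotine, and 5.62 ± 0.08 in untreated LnCaP, against 5.84 ± 0.07 in untreated 22RV1 (SD, n = 3 each). It was not called (adjusted p = 0.154 with nicotine and 0.216 untreated).

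ERG, the ETS factor most often rearranged in prostate cancer, was below the array median on all 12 arrays and all 3 of its probe sets. Its probe set 222079_at had 4.22, 4.52 and 4.39 in LnCaP with nicotine, against 4.32, 4.17 and 4.16 in 22RV1 with nicotine, where the lines overlapped. In untreated cells it had 4.54, 4.51 and 4.42 in LnCaP, against 4.07, 4.14 and 4.31 in 22RV1, a difference of 0.32 (limma adjusted p = 0.0182). Leaving out 1 array ended that call in 4 cases, with adjusted p of 0.0750 and 0.0586 without the first or second untreated 22RV1 array, and 0.0599 and 0.0514 without the first or second untreated LnCaP array. A second probe set, 211626_x_at, had 4.14, 4.20 and 4.23 in LnCaP with nicotine, against 4.27, 4.20 and 4.22 in 22RV1 with nicotine, and 4.28, 4.31 and 4.39 in untreated LnCaP, against 4.07, 4.07 and 4.13 in untreated 22RV1. It was 0.24 higher in untreated LnCaP (adjusted p = 0.0117) and -0.04 with nicotine (adjusted p = 0.656), where the lines overlapped. The third, 213541_s_at, had 3.97, 4.16 and 4.21 in LnCaP with nicotine, against 4.15, 4.10 and 3.999 in 22RV1 with nicotine, and 4.25, 4.06 and 4.06 in untreated LnCaP, against 4.07, 4.29 and 4.13 in untreated 22RV1, overlapped under both treatments and was called in neither.

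SPDEF and ELF3 are ETS factors of epithelial cells. SPDEF is a luminal and secretory factor, and on 213441_x_at it had 9.60, 9.70 and 9.41 in LnCaP with nicotine, against 10.77, 10.73 and 10.15 in 22RV1 with nicotine. In untreated cells it had 9.75, 9.80 and 9.59 in LnCaP, against 10.82, 10.83 and 10.52 in 22RV1. It was lower in LnCaP, at -0.98 ± 0.16 (SE, limma adjusted p = 0.000225) with nicotine and -1.01 untreated (2.01-fold, adjusted p = 0.000200), and no arrays of the lines overlapped. The probe sets 220192_x_at and 214404_x_at moved likewise, at -1.26 and -0.88 with nicotine and -1.33 and -1.07 untreated. The remaining SPDEF probe sets were not called. On 214403_x_at SPDEF had 7.42, 7.53 and 7.61 in LnCaP with nicotine, against 7.36, 7.34 and 7.55 in 22RV1 with nicotine, and 7.51, 7.41 and 7.44 in untreated LnCaP, against 7.42, 7.45 and 7.43 in untreated 22RV1. On 213442_x_at it had 7.19, 7.28 and 7.32 in LnCaP with nicotine, against 7.18, 7.07 and 7.11 in 22RV1 with nicotine, and 7.23, 7.23 and 7.26 in untreated LnCaP, against 7.08, 7.24 and 7.30 in untreated 22RV1. These arrays lay within about 0.3 of each other, with overlap between the lines on both probe sets in untreated cells. The probe set 214403_x_at differed by 0.11 with nicotine (95% interval -0.07 to 0.28) and 0.02 untreated (-0.16 to 0.19), and 213442_x_at by 0.14 (-0.03 to 0.31) and 0.03 (-0.14 to 0.20). All 5 SPDEF probe sets are of the _x_at kind.
ELF3, induced in differentiating epithelium, had probe sets that disagreed. On 201510_at it averaged 6.44 ± 0.08 in LnCaP with nicotine, against 7.08 ± 0.39 in 22RV1 with nicotine (SD, n = 3 each), a difference of -0.65 (limma adjusted p = 0.0130). In untreated cells it averaged 6.71 ± 0.07 in LnCaP, against 7.19 ± 0.34 in 22RV1, which was -0.48 (adjusted p = 0.0540). It was called once the replicate number entered as a block (limma adjusted p = 0.0270). That block treats same-numbered arrays of the lines as paired, which was not checked. The brighter probe set 210827_s_at had 7.66, 7.83 and 8.01 in LnCaP with nicotine, against 8.01, 7.999 and 7.80 in 22RV1 with nicotine, and 7.83, 7.93 and 7.96 in untreated LnCaP, against 7.99, 8.09 and 7.95 in untreated 22RV1, with the lines overlapping under both treatments. It differed by -0.11 with nicotine (95% interval -0.32 to 0.11) and -0.10 untreated (-0.32 to 0.11).

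**Figure D2:**
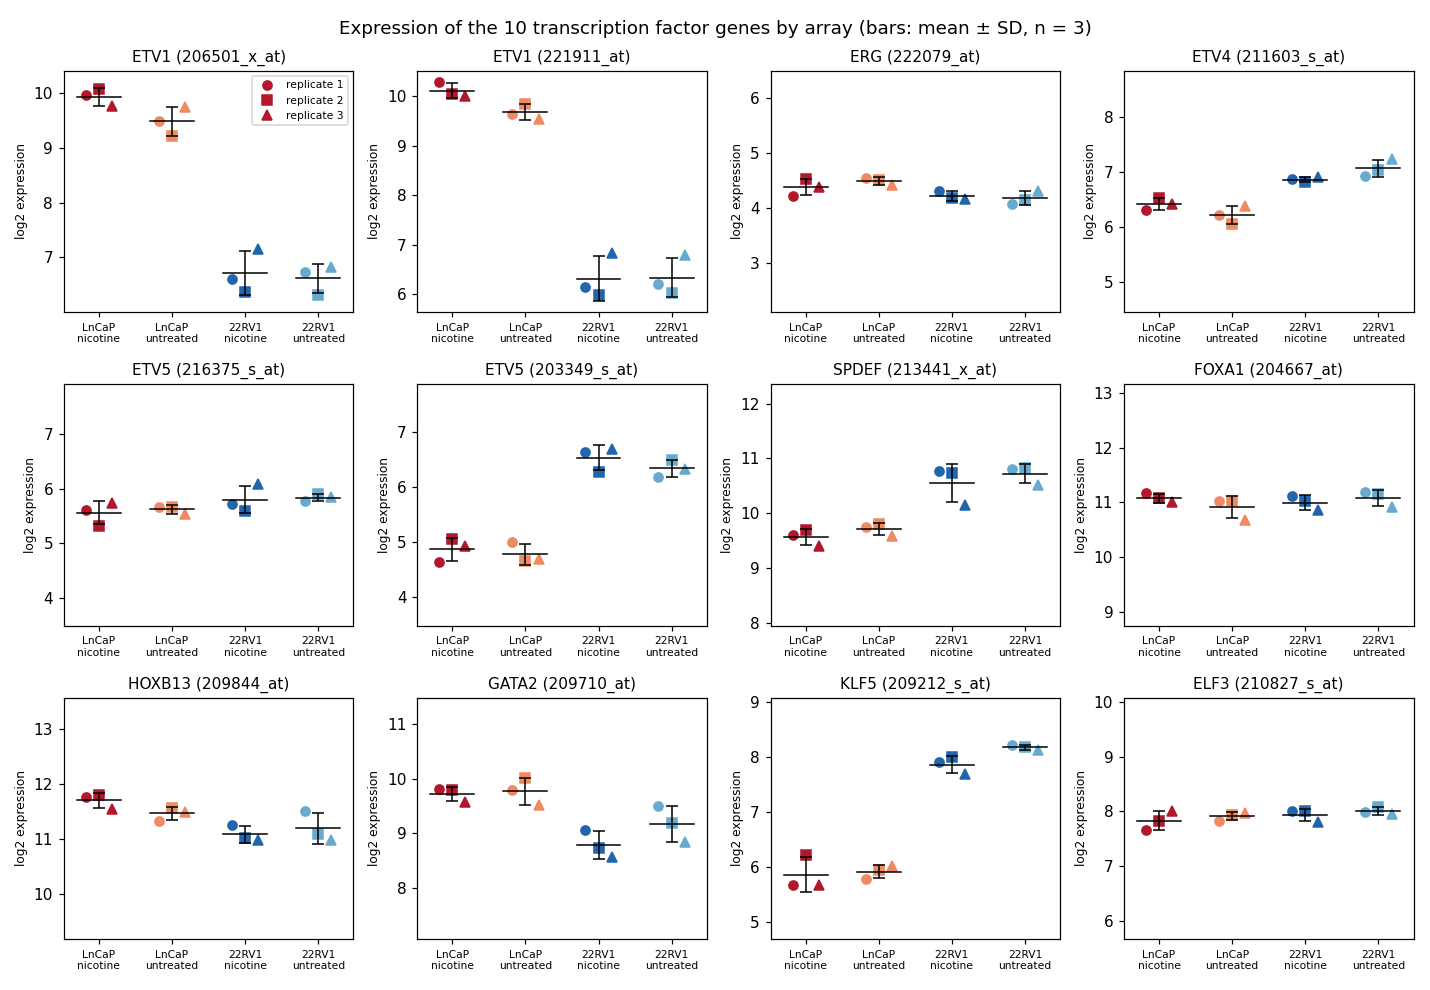
Log2 intensity of the brightest probe set of each of the 10 genes, with a second ETV1 and a second ETV5 probe set, on each of the 12 arrays; bars are the mean ± SD of 3 arrays, with nicotine left of untreated and LnCaP left of 22RV1. ETV1 and KLF5 separate the lines in opposite directions, FOXA1 lies between 10.68 and 11.19 in all groups, and nicotine-treated and untreated arrays of a line lie close together.

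Among the lineage factors FOXA1, HOXB13, GATA2 and KLF5, the line difference was smallest for FOXA1. FOXA1 had 11.16, 11.07 and 10.999 in LnCaP with nicotine, against 11.12, 11.02 and 10.85 in 22RV1 with nicotine, and 11.03, 11.02 and 10.68 in untreated LnCaP, against 11.19, 11.15 and 10.92 in untreated 22RV1. The lines overlapped under both treatments, and the differences were 0.08 (95% interval -0.17 to 0.33) with nicotine and -0.18 (-0.43 to 0.07) untreated. HOXB13, a homeobox factor of prostate and distal colon, had 11.76, 11.80 and 11.55 in LnCaP with nicotine, against 11.25, 11.01 and 10.98 in 22RV1 with nicotine, which was 0.62 higher (1.54-fold, limma adjusted p = 0.00244). In untreated cells it had 11.33, 11.57 and 11.50 in LnCaP, against 11.51, 11.08 and 10.97 in 22RV1, where the lines overlapped through the first 22RV1 array (0.28, 95% interval -0.02 to 0.58, adjusted p = 0.131). Without that array the untreated difference was 0.44 (adjusted p = 0.0116). The change of the line difference with treatment was not called (0.35 ± 0.19 SE, adjusted p = 0.879).

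GATA2, a zinc-finger factor that acts with FOXA1 at androgen-responsive enhancers, was higher in LnCaP. On 209710_at it had 9.80, 9.79 and 9.58 in LnCaP with nicotine, against 9.07, 8.73 and 8.56 in 22RV1 with nicotine, and 9.79, 10.004 and 9.51 in untreated LnCaP, against 9.49, 9.18 and 8.84 in untreated 22RV1. The lines did not overlap, and the difference was 0.93 with nicotine (1.91-fold, limma adjusted p = 0.000853) and 0.60 untreated (1.51-fold, adjusted p = 0.0160). The untreated call was lost without the third untreated 22RV1 array (0.43, adjusted p = 0.0678) or the second untreated LnCaP array (0.48, adjusted p = 0.0705). The probe set 210358_x_at gave 0.68 and 0.39, both called, and 207954_at gave 0.40 with nicotine (adjusted p = 0.00573) and 0.19 untreated (adjusted p = 0.168).

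KLF5 was the member lowest in LnCaP relative to 22RV1. On 209212_s_at it had 5.67, 6.22 and 5.67 in LnCaP with nicotine, against 7.91, 7.99 and 7.69 in 22RV1 with nicotine. In untreated cells it had 5.78, 5.94 and 6.01 in LnCaP, against 8.23, 8.18 and 8.13 in 22RV1. The LnCaP values lay below the array median and the 22RV1 values above it, with no overlap. The difference was -2.01 with nicotine (4.03-fold lower, limma adjusted p = 2.23e-07) and -2.27 untreated (4.82-fold lower, adjusted p = 8.15e-08). The dimmer probe set 209211_at had 3.43, 4.10 and 3.66 in LnCaP with nicotine, against 4.42, 4.56 and 4.28 in 22RV1 with nicotine, and 3.35, 3.55 and 3.53 in untreated LnCaP, against 4.74, 4.19 and 4.42 in untreated 22RV1. It ran the same way, at -0.69 and -0.97, both called.

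Genes connected with the 10 were read at the brightest probe set of each. The counts in these lists are set beside the 46.2% of all probe sets called with nicotine (23.8% higher and 22.4% lower) and the 43.7% called untreated (22.8% and 20.9%). These shares count every probe set, while the lists count 1 per gene, so the measures are not alike. The share of all genes called is not given here. The median absolute difference between the lines over all genes was 0.28 with nicotine and 0.27 untreated. Of 20 other ETS genes, all measured, 5 were higher and 6 lower in LnCaP than in 22RV1 with nicotine, and 2 and 6 untreated, so that 11 and 8 of the 20 were called, near the share of all probe sets. The median absolute difference was 0.34 and 0.21. The genes named from it were chosen after their values were seen. ELF5, a factor of glandular epithelium, was lower in LnCaP, at -2.50 ± 0.46 (SE) with nicotine and -2.54 ± 0.46 untreated. The LnCaP arrays scattered widely for ELF5, with an SD of 0.95 with nicotine and 0.97 untreated. Its close relative EHF was 1.79 and 1.57 higher. ETS2, the nearest measured gene on one side of ERG on chromosome 21, was -1.28 and -1.03.
Of 16 other lineage factors, 13 were measured. With nicotine 0 were higher and 8 lower in LnCaP, and untreated 0 and 9, against 22.4% and 20.9% of all probe sets called lower, with median absolute differences of 0.58 and 0.81. GATA3, a luminal factor of breast and urothelium, was -3.82 with nicotine and -4.09 ± 0.54 (SE) untreated. KLF4, a zinc-finger factor of differentiating epithelium, was -3.20 and -2.67, and NR3C1, the glucocorticoid receptor, was -2.77 and -2.30.
GRHL2, FOXA2, SOX2 and HOXD13 were not called in either comparison. The list therefore ran in 1 direction where called, with members of different known roles.

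Genes that ERK signalling is known to induce were listed because it also acts on PEA3 factors. Of 15 listed, 13 were measured, with 0 called higher and 9 called lower in LnCaP with nicotine, and 1 higher and 9 lower untreated. Of all probe sets 22.4% and 20.9% were called lower. The median absolute difference was 1.38 with nicotine and 1.29 untreated. SPRY2, a feedback inhibitor of receptor tyrosine kinases, was -2.78 and -2.91, and CCND1, the G1 cyclin D1, was -2.73 and -2.66. EGR1, an immediate early factor, was -2.35 and -2.69, and DUSP6, an ERK phosphatase, was -1.64 and -1.29. ETV4 and ETV5 stood on the same side as the 9 genes called lower and ETV1 on the other. At its brightest probe set, the measure used for the list, ETV5 was only -0.24 with nicotine and -0.22 untreated and was not called. A part of ERK signalling in these differences was not tested.

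Of 13 genes known as 5′ fusion partners of ETS genes, 8 were measured. With nicotine 3 were higher and 2 lower in LnCaP, and untreated 5 and 2, so that 5 and 7 of the 8 were called, against 46.2% and 43.7% of all probe sets. The median absolute differences were 0.92 and 1.00. STAT3, a cytokine-activated transcription factor, was 2.49 and 2.76. FKBP5, an androgen- and glucocorticoid-induced chaperone partner, was -3.20 and -2.59. TMPRSS2, the androgen-driven protease gene most often fused to ERG, was 0.49 with nicotine (limma adjusted p = 0.190) and 1.23 untreated (adjusted p = 0.00397).
Of 10 genes for the turnover of ETS proteins, 9 were measured. With nicotine 3 were higher and 3 lower, and untreated 2 and 3, so that 6 and 5 of the 9 were called, against 46.2% and 43.7% of all probe sets. The median absolute differences were 0.28 and 0.29, about those of all genes. SPOP, a ubiquitin ligase adaptor, was 0.66 and 0.76, and TRIB1, a scaffold for ubiquitination, was -0.86 and -1.22.
All 15 listed ETS target genes were measured. With nicotine 1 was higher and 4 lower, and untreated 2 and 4, so that 5 and 6 of the 15 were called, which does not exceed the 46.2% and 43.7% of all probe sets. The median absolute difference was 0.20 in both. MMP7, a secreted protease, was 0.93 and 0.92, while VIM, a mesenchymal filament, was -1.59 and -1.97.

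**Figure D3:**
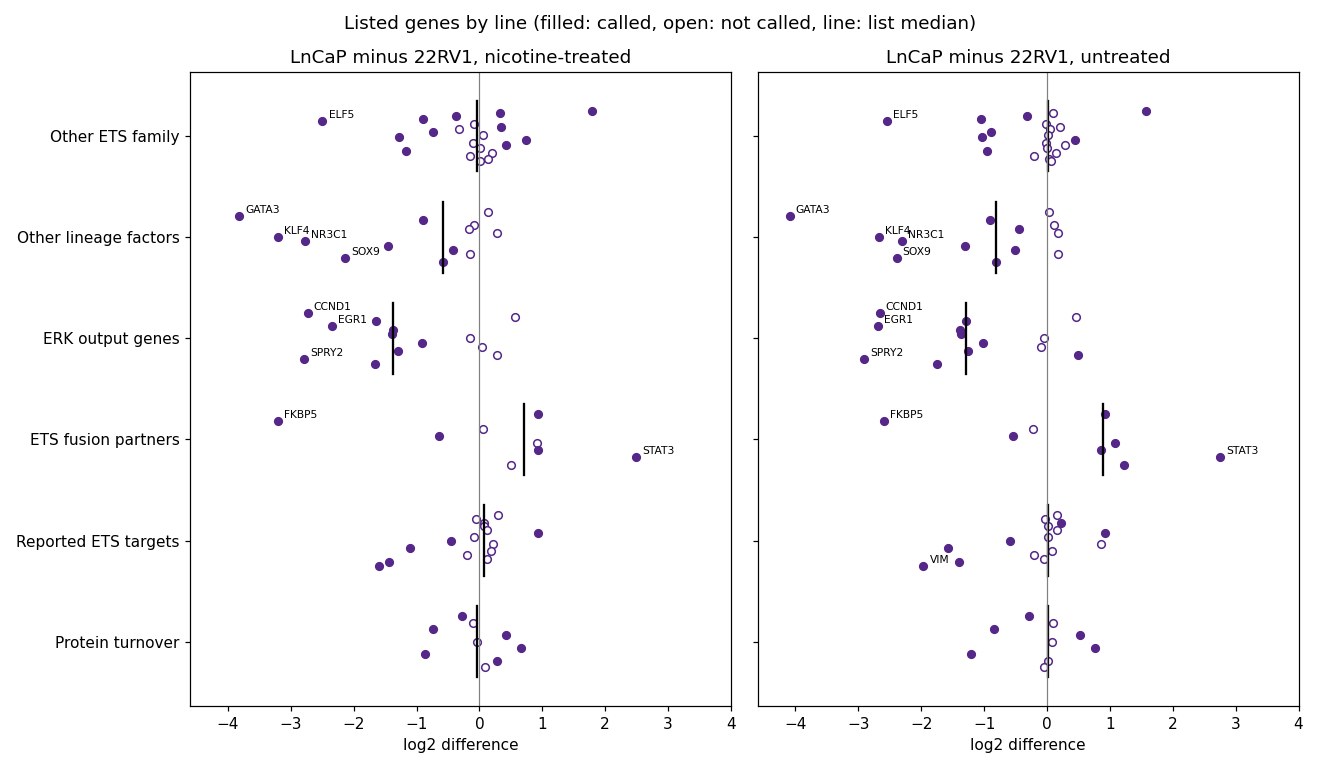
LnCaP minus 22RV1 on the log2 scale for each measured gene of the 6 lists of connected genes, at its brightest probe set, with nicotine-treated and untreated comparisons shown separately and filled points passing the limma threshold and black lines marking list medians. The ERK-induced genes and the other lineage factors lie mostly below 0, and the remaining lists lie on both sides of it.

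Measured genes beside each member were read from RefSeq gene order, 5 on each side, a step chosen after the values of ETV1 and KLF5 were seen. Beside ETV1 on chromosome 7, 1 of 10 was higher and 4 were lower in LnCaP under both treatments, against 21.6% and 19.9% of 11955 genes. The higher one was DGKB, a diacylglycerol kinase next to ETV1. DGKB had 6.76, 6.71 and 6.93 in LnCaP with nicotine and 6.28, 7.05 and 6.75 in untreated LnCaP, against 2.99, 2.83 and 3.26 in 22RV1 with nicotine and 3.10, 3.12 and 3.22 in untreated 22RV1. Its only probe set differed by 3.77 ± 0.17 with nicotine (SE; limma adjusted p = 3.59e-09) and 3.55 untreated (adjusted p = 6.87e-09). The 22RV1 values lie near the lowest value on any array, 2.67, so the size of this difference may be a lower bound. On the other side of ETV1, SCIN, an actin-severing protein, was -0.59 under both treatments and TMEM106B, a lysosomal membrane protein, -0.29 and -0.60. Beyond DGKB, MEOX2, a mesodermal homeobox gene, was 0.11 and -0.07 and was not called, while SOSTDC1, a secreted BMP and WNT antagonist, was -1.18 and -1.44 and BZW2, a translation regulator, -0.99 and -0.80, both called under both treatments.

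Beside KLF5 on chromosome 13, 0 of 10 measured genes were higher and 4 were lower in LnCaP under both treatments. PIBF1, a centrosomal protein, had 4.58, 4.44 and 4.42 in LnCaP with nicotine and 4.04, 4.54 and 4.14 in untreated LnCaP, against 6.75, 6.68 and 6.73 in 22RV1 with nicotine and 6.63, 6.63 and 6.73 in untreated 22RV1. The lines did not overlap, and the differences were -2.24 and -2.42. DIS3, an exosome ribonuclease, was -2.05 and -1.80, with -2.65 and -2.45 on its other probe set, and BORA, a mitotic kinase activator, was -2.02 and -2.07. PIBF1, DIS3 and BORA follow each other on the same side of KLF5. A run of 3 lower neighbours on a side is seen beside 3.62% of all genes, and beside 5.97% of genes that are themselves lower. On the other side, the brightest probe set of KLF12, a related zinc-finger repressor, differed by 0.08 and -0.18 and was not called, while another of its 4 probe sets, 214276_at, was -0.35 and -0.46.

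Beside HOXB13 on chromosome 17, the HOXB genes differed in what was called. HOXB9, next to it, was -0.16 with nicotine, not called, and -0.45 untreated, called, and HOXB8 was 0.005 and -0.05, not called. HOXB9 lay at 4.98 to 5.66 and HOXB8 at 4.14 to 4.60, below the lowest array median of 6.61 in both lines. Whether this low signal hides a difference was not tested. At the brightest probe sets, HOXB7 was -3.55 and -3.81, HOXB6 -1.05 and -1.01 and HOXB5 -1.39 and -1.29, all called. For HOXB7, 216973_s_at gave -3.55 and -3.34, but 204778_x_at only -1.64 and -1.63. Other probe sets gave -0.66 and -0.36 for HOXB6 and -1.43 and -1.20 for HOXB5. HOXB13 itself was higher in LnCaP with nicotine, so members of 1 homeobox cluster stood on both sides of 0. Beside FOXA1 on chromosome 14, 1 of 10 measured genes was higher and 3 were lower in LnCaP under both treatments, against 21.6% and 19.9% of 11955 genes. The lower ones were SSTR1, a somatostatin receptor, at -0.96 and -0.97, MIA2 at -0.59 and -0.82 and MBIP at -0.37 and -0.41. The higher one was SEC23A, a vesicle coat protein, at 0.52 and 0.40. DNA copy number was not measured, and its part in these runs was not tested.

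**Figure D4:**
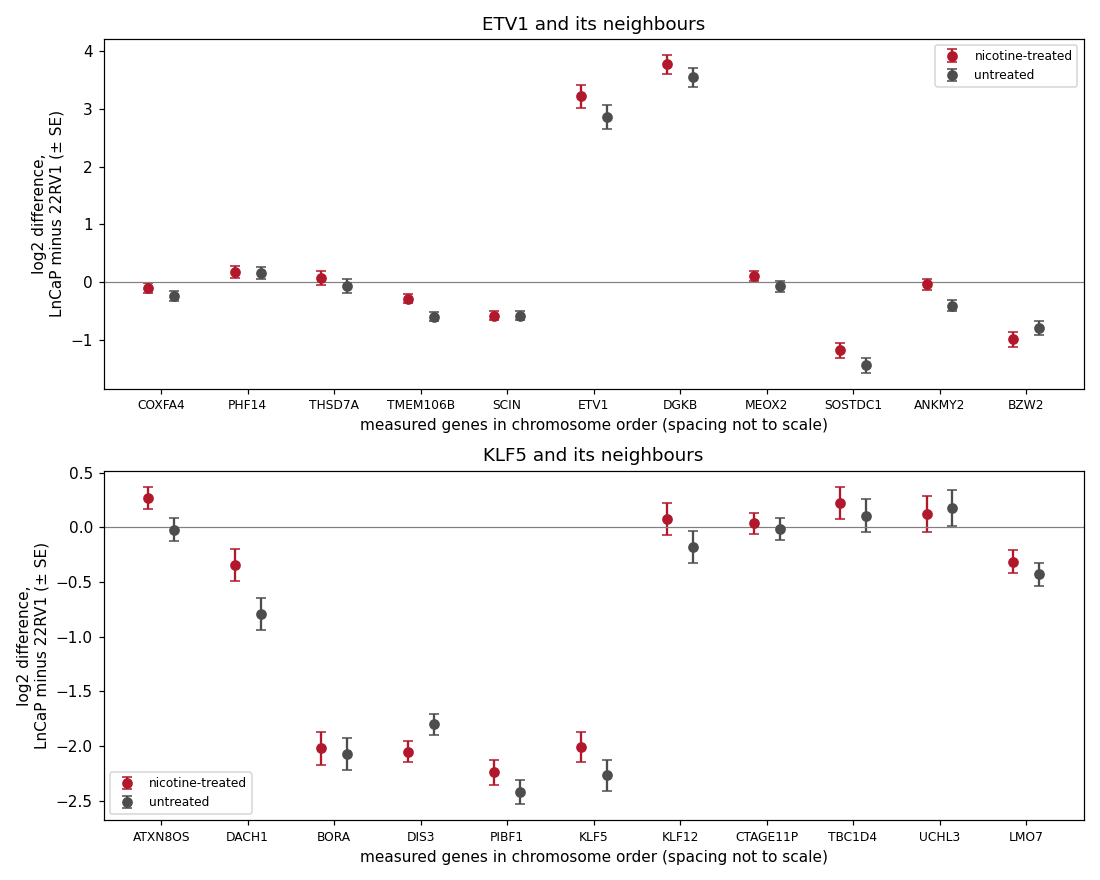
LnCaP minus 22RV1 on the log2 scale (± SE) for ETV1 and KLF5 and the 5 nearest measured genes on each side, in gene order, in nicotine-treated and untreated cells. DGKB and ETV1 stand between 2.86 and 3.77, and the 3 genes on 1 side of KLF5 stand with it near -2.

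By Pearson correlation of the brightest probe sets over the 12 arrays, the genes most like ETV1 were PIK3CD, GASK1B and H2AC14, each with r = 0.992. Those most like KLF5 were DOK4 (0.995), CDKN2A (0.993) and CRIP1 (0.991). The 12 arrays fall into 2 lines, so a high r mostly restates the line difference: 789 genes had r above 0.95 with ETV1 and 681 with KLF5, but 0 with ERG. For SPDEF the closest were TRIM28 (0.987), ADCY3 (0.986) and HMGXB4 (0.986). For ETV4 they were ZNF394 (0.970), RNF115 (0.968) and GNAI2 (0.965), and for GATA2 PIK3CB (0.964), PIGC (0.962) and MPRIP (0.960). HOXB13 was closest to MED28 (0.965), RFX3 (0.954) and DCTN4 (0.941). The highest values of the remaining members were FABP6 (0.916) for FOXA1, SERPINC1 (0.931) for ELF3, LINC00574 (0.905) for ETV5 and IKBKG (0.915) for ERG.

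The other question of the design was what nicotine did within each line. None of the 26 probe sets was called in LnCaP (0 of 26 by limma, 1 at an unadjusted p below 0.05) or in 22RV1 (0 of 26 by limma, 3 at an unadjusted p below 0.05). Over all probe sets, 0.471% were called in LnCaP and 0% in 22RV1, where 1148 had an unadjusted p below 0.05. For the average of both lines 0 of 26 were called, with 1 at an unadjusted p below 0.05. Of all probe sets 0.211% were called, and 2271 had an unadjusted p below 0.05. For the contrast of the LnCaP effect with the 22RV1 effect 0 were called, with 2 at an unadjusted p below 0.05. Of all probe sets 0% were called, and 1355 had an unadjusted p below 0.05. The effects of nicotine on the 26 ran from -0.27 to 0.45 in LnCaP and from -0.38 to 0.44 in 22RV1. Their median absolute size was 0.10 and 0.13, against 0.09 and 0.08 over all probe sets.

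The largest nicotine effect in LnCaP was that of ETV1. On 206501_x_at it had 9.97, 10.08 and 9.76 with nicotine, against 9.48, 9.22 and 9.74 untreated, and the groups did not overlap. The difference was 0.45 ± 0.20 (SE; 95% interval 0.02 to 0.89, limma adjusted p = 0.445). Same-numbered arrays differed by 0.49, 0.86 and 0.02. On 221911_at the difference was 0.43 ± 0.22 (adjusted p = 0.552), with same-numbered differences of 0.64, 0.20 and 0.46. With the replicate number as a block, this probe set alone of the 26 was called (adjusted p = 0.0335), against 3.8% of all probe sets, while 206501_x_at was not (adjusted p = 0.133). The probe sets 217053_x_at and 217061_s_at gave 0.43 and 0.44, and the dimmer 221910_at gave 0.07. In 22RV1, ETV1 differed by 0.09 on 206501_x_at and -0.03 on 221911_at. The difference between the lines in the effect on 221911_at was 0.46 ± 0.31 (SE; adjusted p = 0.932, with the block 0.210), so an effect particular to LnCaP was not shown.

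In LnCaP the other members were not called. HOXB13 was 0.24, with same-numbered differences of 0.43, 0.23 and 0.05, and FOXA1 was 0.17, with 0.14, 0.06 and 0.32. ELF3 on 201510_at had 6.36, 6.42 and 6.52 with nicotine, against 6.68, 6.78 and 6.66 untreated, a difference of -0.27 without overlap. In 22RV1 the smallest unadjusted p among the members belonged to ETV5 on 203348_s_at, at 0.44 ± 0.14 (SE; limma adjusted p = 0.850), although 1 of its 3 same-numbered differences was near 0. ETV5 gave 0.20 on 203349_s_at and -0.04 on its brightest probe set, 216375_s_at. KLF5 on 209212_s_at was -0.32 (adjusted p = 0.958), with -0.32, -0.19 and -0.45, and its groups did not overlap. On the dimmer 209211_at KLF5 was -0.03, with -0.32, 0.38 and -0.14, and the groups overlapped. GATA2 on 209710_at was -0.38 (adjusted p = 0.958), with -0.42, -0.45 and -0.27.

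For ETV4, FOXA1 and the ERG probe set 211626_x_at, all 3 same-numbered differences ran one way in LnCaP and the other way in 22RV1. These were picked after the values were seen, and the share of all probe sets with this pattern is not given here. The other ERG probe sets did not show it, and ERG lay below the array median on every array. ETV4 gave 0.10, 0.47 and 0.02 in LnCaP and -0.06, -0.22 and -0.33 in 22RV1. The difference of the effects was 0.40 ± 0.15 (SE; limma adjusted p = 0.712, with the block 0.298). ERG gave -0.14, -0.11 and -0.16 in LnCaP and 0.19, 0.13 and 0.10 in 22RV1, a difference of -0.28 ± 0.09 (adjusted p = 0.685, with the block 0.294). For FOXA1 the difference was 0.26 ± 0.16 (adjusted p = 0.907, with the block 0.391). None was called.

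**Figure D5:**
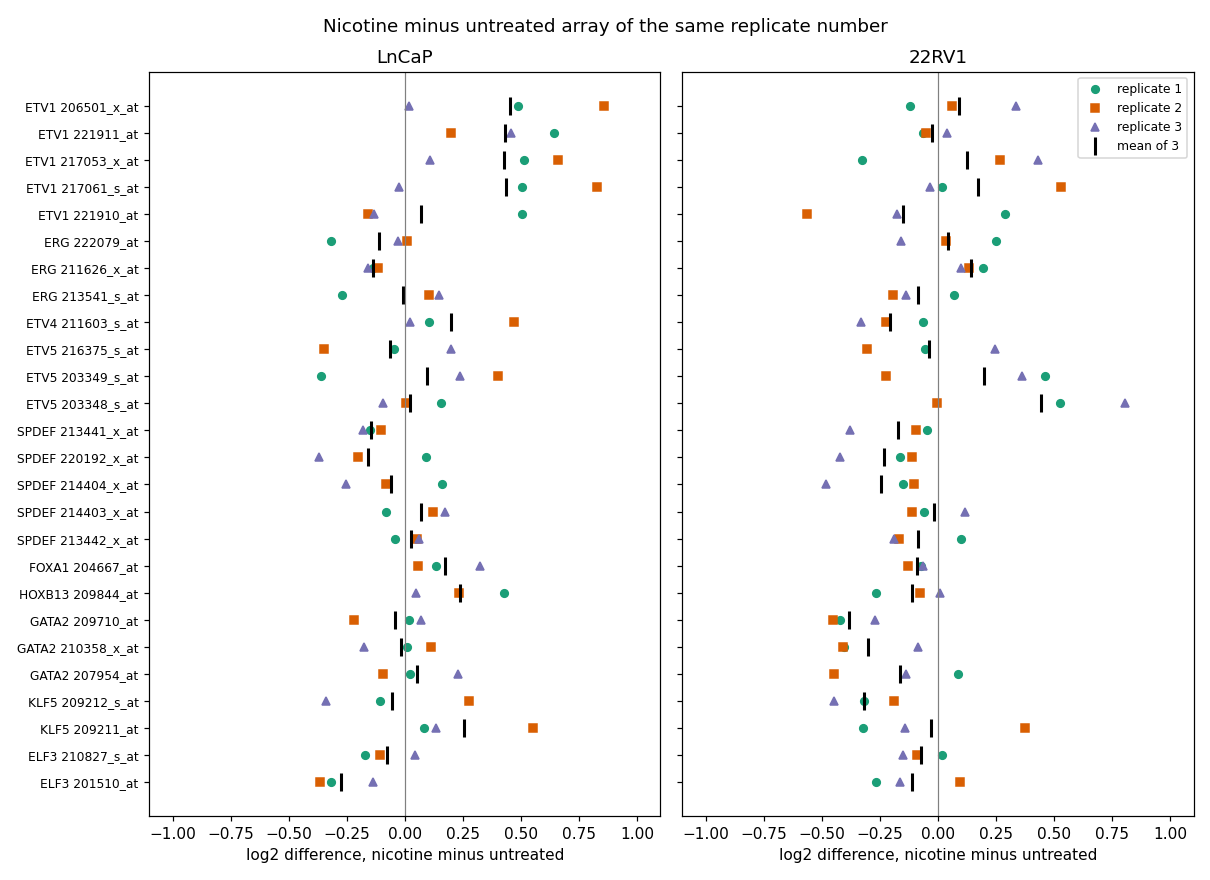
Nicotine-treated minus untreated log2 intensity for same-numbered arrays, 3 per line, at the 26 probe sets; black bars are the mean of 3. On 4 of the 5 ETV1 probe sets the mean in LnCaP lies between 0.43 and 0.45, and most points of the other genes lie within 0.5 of 0 in both lines.

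Of the 78 measured genes in the 6 lists, 0 were called for nicotine by limma in LnCaP, in 22RV1, on average or in the difference between lines, and 7, 5, 6 and 0 had an unadjusted p below 0.05. The smallest p-values in LnCaP were those of ELF1, an ETS factor (0.30, adjusted p = 0.199), and CACNA1D, a calcium channel subunit listed as an ETS target (adjusted p = 0.213). In 22RV1 they were those of PLAT, tissue plasminogen activator (-0.53, adjusted p = 0.882), and HOXB9 (-0.30, adjusted p = 0.904). With the replicate number as a block, KLF4 (-0.59, adjusted p = 0.0155), KLK2, a kallikrein protease (-0.77, 0.0156), FKBP5 (-0.60, 0.0497) and CACNA1D (0.57, 0.0228) were called in LnCaP. These 4 are 5.13% of the 78, against 3.8% of all probe sets with the block. For the average of both lines the block called 3, which were KLK2 (-0.69, adjusted p = 0.0141), the ERK phosphatase gene DUSP4 (-0.47, 0.0444) and CACNA1D (0.50, 0.0178), or 3.85%, against 2.01% of all probe sets. It called 0 in 22RV1 and 0 for the difference between lines.

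Of the residual sum of squares, 47.2% came from the 4 arrays numbered 3. In 22RV1 the third array was the lowest of both its groups for 10 of the 26 probe sets (38.5%, against 22.0% of all), which belonged to SPDEF, FOXA1, HOXB13, GATA2, KLF5 and ELF3. It was the highest for 6 (23.1%, against 23.2% of all), which belonged to ETV1 and ETV4. On 213441_x_at, SPDEF in the third 22RV1 array was -0.61 from the mean of the other two with nicotine and -0.30 untreated, and ETV1 on 221911_at was 0.77 and 0.67. In LnCaP the third array was lowest in both groups for 6 (23.1%, against 18.1% of all). What distinguishes these arrays was not tested.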

How the data were processed

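The authors deposited log2 intensities of 22277 Affymetrix probe sets on 12 arrays; for the software and normalization behind them the sources used here name nothing, and no further normalization was applied. Probe sets were named from GEO's platform annotation of 2016, in which 19070 carry 1 gene symbol, 1043 several and 2164 none. Group means were fitted to all 12 arrays by moderated linear models (limma 3.58.1 under R 4.3.3), and p-values were adjusted over all 22277 probe sets. Probe sets of a gene were reported separately; the brightest over all arrays stood for a gene in lists. The fit was tested on simulated data. From connected lists, the genes named by rule were the 6 largest called differences, or the 2 smallest p-values where none was called. The members and lists were chosen with earlier results of these data known. Same-numbered arrays of a line deviated together (r = 0.358, 0.179 and 0.554 in LnCaP, 0.445, 0.424 and 0.626 in 22RV1). Between arrays 1 and 2, r was 0.257 and 0.024 in LnCaP and 0.249 and 0.199 in 22RV1, while array 3 had a negative r with both. Deviations were taken from the mean of the 3 arrays of a group and cancel within it, so negative values of r are partly built in. The same-numbered r was highest for array 3 in both lines, while a pairing of arrays 1 and 2 was not clear in LnCaP. For nicotine the number was fitted as a block within a line. For the line comparisons the block was the number shared by both lines, a pairing that was not checked. The median standard error of a difference was 0.11, and 3 arrays per group limit the precision.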

Additional observations from a re-analysis of the deposited data

How the results depend on the processing

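Over the 26 probe sets, leaving out 1 array gave 17 to 18 calls between the lines with nicotine and 13 to 18 untreated, and 0 to 0 for nicotine in LnCaP, in 22RV1, on average and for the difference between lines. With the replicate number as a block, 1 probe set was called for nicotine in LnCaP. A block on the number shared by both lines gave 18 and 17 calls between the lines with nicotine and untreated. It also called ELF3 201510_at untreated. With 1 probe set per gene, 6 of 10 genes were called in each line comparison, a smaller number because fewer features were counted. In this count ETV1 and SPDEF, with 5 probe sets each, enter once. Of all probe sets, 46.2% were called between the lines with nicotine and 43.7% untreated. The share of all genes called at 1 probe set per gene is not given here. With arrays 1 and 2 only, the nicotine effect turned to 0.084 for KLF5 in LnCaP and to -0.030 for ETV1 in 22RV1, both uncalled. Leaving out 1 array turned uncalled nicotine effects in LnCaP over -0.152 to 0.051 for ETV5, -0.172 to 0.075 for GATA2, -0.240 to 0.036 for KLF5 and -0.167 to 0.0084 for ELF3. In 22RV1 they ran over -0.129 to 0.261 for ETV1, -0.011 to 0.112 for ERG, -0.180 to 0.061 for ETV5, -0.283 to 0.030 for SPDEF and -0.220 to 0.051 for HOXB13. Over all probe sets, the 105 calls for nicotine in LnCaP became 847 with the block, 177 with a trended robust prior, 177 after dropping dim probe sets, 165 with array weights and 2 with the LnCaP arrays alone. The 47 for the average became 448, 86, 81 and 120 under the first 4 of these, and 16 with arrays 1 and 2 only. The causes were not tested. Of the 26 probe sets, 16 pass the dim filter, and the ERG probe sets are among those that do not. Whether low signal limits the results of the others was not tested.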
